A study of Mus musculus with 24 samples.

Results

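The subunits of oxidative phosphorylation were followed in whole kidneys of mice that lack peroxisome biogenesis in the renal tubule. Members were protein-coding genes named after the subunits of complexes I to V (symbols that start with Ndufa, Ndufb, Ndufc, Ndufs, Ndufv, Uqcr, Cox4 to Cox8, Atp5 or mt-, and Sdha to Sdhd), that reached 1 CPM, the count scaled to library size, in 6 or more of the 24 kidneys. Of 55335 genes in the files, 107 had such a symbol and 97 also reached the level. Among these 97 members, 90 lie in the nuclear genome and 7 in the mitochondrial genome. The nuclear members were 44 of complex I, 4 of complex II, 8 of complex III, 17 of complex IV and 17 of complex V. The symbols also take in 8 assembly factors of complex I (the Ndufaf genes). Cyc1, a subunit of complex III, has another kind of symbol and is given with the related genes. All mice had a C57BL/6J background. The cKO mice (cKOm, males, and cKOf, females) were Pex5lox/lox/Pax8-rtTA/LC1. In them doxycycline (DOX) switches on Cre in cells that express Pax8, a system the study used to delete Pex5 in the renal tubule. Their littermate controls (Ctrlm and Ctrlf) were Pex5lox/lox without these transgenes. DOX was given to all 4 groups, starting at 8 weeks of age and lasting 2 weeks, and the kidneys were collected 4 weeks later. Each group held 6 kidneys. The deletion was aimed at tubule cells, while the RNA came from every cell type of the organ. Loss of Pex5 in other cells was not examined here.

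Oxidative phosphorylation takes electrons from NADH (through complex I) and succinate (through complex II), passes them by ubiquinone and complex III to cytochrome c and by complex IV to oxygen, and uses the proton gradient so formed to make ATP in complex V. Most subunits are encoded in the nucleus and imported, while a small set that forms the hydrophobic core of complexes I, III, IV and V is encoded in mitochondrial DNA. The proximal tubule and the thick ascending limb are packed with mitochondria, since sodium transport in these segments runs on ATP from respiration. Peroxisomes share part of fatty acid oxidation with mitochondria.

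Reads counted on genes numbered 19376152 to 28470831 in a kidney. Pex5, which encodes the receptor that imports peroxisomal matrix enzymes, ranged from 49.0 to 62.7 CPM in Ctrlm and from 41.8 to 47.2 CPM in cKOm kidneys, with no overlap. In females its range was 42.9 to 61.7 CPM for Ctrlf and 38.0 to 48.5 CPM for cKOf kidneys, which overlapped. The log2 fold change was -0.31 in males (edgeR adjusted p = 0.0219) and -0.21 in females (edgeR adjusted p = 0.177), with reads counted over all exons and from all cells. The male call was lost without Ctrlm 2 (edgeR adjusted p = 0.0656) or cKOm 4 (edgeR adjusted p = 0.0505). Proximal tubule markers were present in every kidney, and the sum of 9 of them was lower in each cKOm kidney (10220 to 11060 CPM) than in each Ctrlm kidney (13150 to 15450). The sum was carried by abundant genes such as Slc34a1 (median 3700 CPM in Ctrlm and 3028 in cKOm kidneys) and Slc27a2 (3742 and 2887), and by Slc7a13 (825 and 170.0). The medians of Slc5a12 (341 and 488 CPM) and Slc5a2 (325 and 351) were higher in cKOm kidneys. The sum of 4 markers of the thick ascending limb was 3367 to 4282 CPM in Ctrlm and 4040.0 to 4731 in cKOm kidneys, and that of 3 markers of the distal convoluted tubule 938 to 1864 and 1604 to 2012, with overlap in both. Liver transcripts were raised in 5 male kidneys. The sum of 12 hepatocyte markers was 564.66 to 1041.53 CPM in Ctrlm 1 to 4 and 609.07 in cKOm 4, against 85.02 to 211.03 in the other 19 kidneys. In 3 other kidneys the members themselves stood apart from their group, namely Ctrlm 5, Ctrlf 5 and cKOf 6, and values without them are given below.

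Of the 13 protein-coding genes of the mitochondrial genome, 7 could be measured and 6 were listed at or near 0. Across all 24 kidneys, mt-Nd4l and mt-Atp8 had 0 counts, mt-Atp6 had 1, mt-Co3 had 11, mt-Co2 had 16 and mt-Nd3 had 155. The mouse genome holds a near-identical copy of this stretch on chromosome 1, and the files set aside reads that align to more than 1 place. Their line held 26.9% to 34.8% of all counts listed per kidney. Whether it counts each read or each alignment is not given in the sources used here. For mt-Nd3, mt-Co2, mt-Co3, mt-Atp6 and mt-Nd4l, 97.99% to 100% of all stretches of 50 bases were also found in transcripts of other genes. The copies themselves had between 2 and 25 counts over all kidneys. The part of the reads set aside in these low counts was not tested, and no level is given for these genes. The start of mt-Nd3 is shown beside its copy Gm28438, since this pair has 344 of 345 bases in common and the only difference falls in it. The gene lies on the mitochondrial chromosome of GRCm38 from 9459 to 9806 (plus strand) and the copy on chromosome 1 from 24612775 to 24613119 (minus strand). Both are written 5′ to 3′ along the gene, with the differing base in capitals.
mt-Nd3, chrM:9459-9518: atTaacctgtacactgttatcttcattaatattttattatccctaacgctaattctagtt
Gm28438, same stretch: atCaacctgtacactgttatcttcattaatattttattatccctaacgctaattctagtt
By contrast, the nearest annotated copy of mt-Nd2, the pseudogene Gm13339 on chromosome 2, covers 510 bases and differs at 17 of them. A stretch of mt-Nd2 that holds some of them is shown in the same way.
mt-Nd2, chrM:4462-4521: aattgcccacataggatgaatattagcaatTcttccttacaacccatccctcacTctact
Gm13339, same stretch: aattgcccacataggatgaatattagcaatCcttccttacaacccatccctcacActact
In mt-Nd2, 8.19% of the 50-base stretches were shared, and 6521884 reads were counted on it. The share was 0% in mt-Nd1, mt-Nd6 and mt-Cytb, 7.61% in mt-Nd5, 51.14% in mt-Co1 and 62.23% in mt-Nd4. Where along mt-Co1 and mt-Nd4 their reads lie was not examined. In mt-Atp8, which overlaps mt-Atp6 and had 0 counts, no stretch was shared with an annotated transcript. It lies between mt-Co2 and mt-Atp6, whose copies on chromosome 1 span 24614885 to 24615565 and 24613974 to 24614651. The sequence between these copies was not searched, so the 0% does not show that mt-Atp8 lacks a copy.

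**Figure D1:**
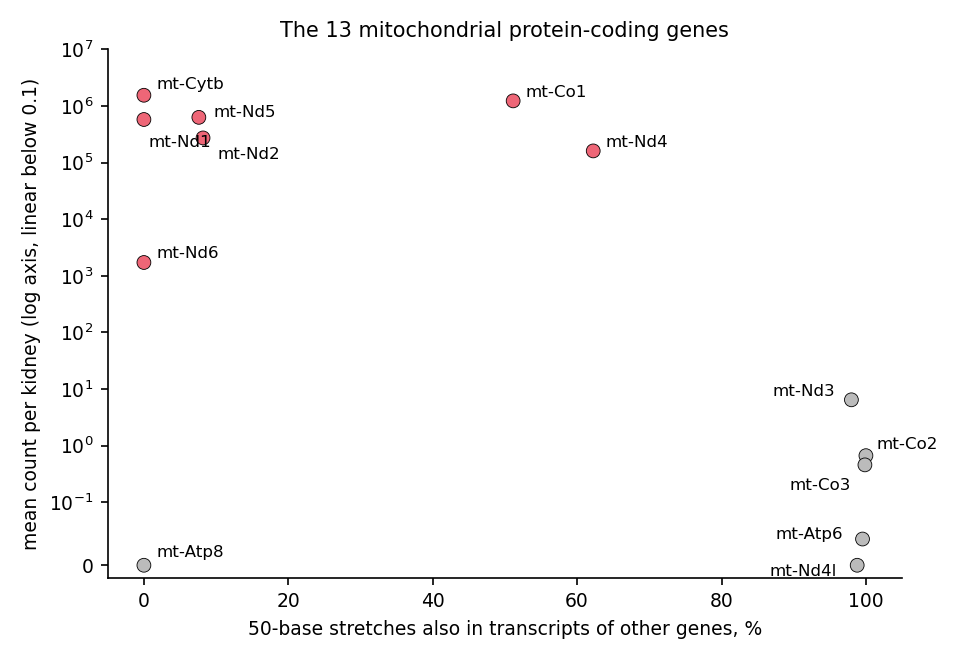
Mean count per kidney (vertical axis, logarithmic above 0.1) against the percentage of 50-base stretches that also occur in transcripts of other genes (horizontal axis) for the 13 mitochondrial protein-coding genes, with members in red and genes under the level in grey. Genes with 97.99% or more of shared stretches lie near 0, and mt-Atp8 is at 0 with 0% shared. Only annotated transcripts were searched.

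Promoters of the 2 members that differed between genotypes in the tests below, Cox6b2 and Cox7a1, are shown with those of Cox6b1, the common isoform of Cox6b2, and Sdhd, which held most of the searched letters. Each runs from 250 bases before the start site to 50 bases after it and comes from RefSeq (GRCm38.p6). Such a window of 300 bases was searched for 72 of the 90 nuclear members. The promoters of the remaining nuclear members were left out of the search, whether or not RefSeq lists them. Capitals mark exact matches, on either strand, to letters bound by factors known to act on respiratory genes, NRF1 (GCGCA, any base and GCGC), ETS factors such as GABP (CCGGAAG), YY1 (AAGATGG) and ERR (TCAAGGTCA), or to the direct repeat DR1 (AGGTCA, any base and AGGTCA) that PPAR and RXR bind, CRE (TGACGTCA) or TATAAA. The matches did not overlap each other in these promoters.
Cox6b2, chr7:4753045-4753344, minus strand: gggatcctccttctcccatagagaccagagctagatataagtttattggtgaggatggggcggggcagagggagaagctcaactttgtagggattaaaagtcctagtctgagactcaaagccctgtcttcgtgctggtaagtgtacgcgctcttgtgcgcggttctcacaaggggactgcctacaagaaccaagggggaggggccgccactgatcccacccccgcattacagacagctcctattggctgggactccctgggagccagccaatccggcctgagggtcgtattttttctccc
Cox7a1, chr7:30183921-30184220, plus strand: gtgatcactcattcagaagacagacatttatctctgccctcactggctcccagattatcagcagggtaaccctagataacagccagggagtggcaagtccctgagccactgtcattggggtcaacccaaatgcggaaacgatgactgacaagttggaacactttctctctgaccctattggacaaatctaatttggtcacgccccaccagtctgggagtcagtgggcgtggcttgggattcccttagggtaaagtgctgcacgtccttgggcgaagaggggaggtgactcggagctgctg
Cox6b1, chr7:30626065-30626364, minus strand: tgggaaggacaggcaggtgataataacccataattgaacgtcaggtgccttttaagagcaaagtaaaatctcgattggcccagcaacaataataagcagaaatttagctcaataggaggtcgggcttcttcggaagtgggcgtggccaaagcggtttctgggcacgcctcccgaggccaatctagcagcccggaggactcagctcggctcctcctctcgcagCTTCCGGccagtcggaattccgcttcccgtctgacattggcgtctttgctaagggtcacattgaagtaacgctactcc
Sdhd, chr9:50603800-50604099, minus strand: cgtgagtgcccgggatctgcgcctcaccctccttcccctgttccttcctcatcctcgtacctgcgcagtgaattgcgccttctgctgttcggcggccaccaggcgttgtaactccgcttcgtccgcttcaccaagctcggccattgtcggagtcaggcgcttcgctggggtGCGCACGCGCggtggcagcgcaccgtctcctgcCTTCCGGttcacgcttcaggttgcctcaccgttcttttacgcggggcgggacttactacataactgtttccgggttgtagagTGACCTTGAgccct
Of the searched letters, none was found in the windows of Cox6b2 and Cox7a1, nor in that of Cox7a2. The window of Cox6b1 held the ETS letters 28 to 22 bases before the start site. The window of Sdhd held NRF1, ETS and ERR letters. Over the 72 promoters of members, the NRF1 letters were in 18 (25.0%), against 4.6% of the 32851 mouse promoters searched. These are not all mouse promoters. The 72 were taken as 1 per gene, while the 32851 were not reduced to 1 per gene or limited to genes expressed in kidney. The percentages here and below are thus over unlike sets. The ETS letters were in 17 (23.6%, against 8.86%) and the YY1 letters in 10 (13.9%, against 6.34%). At least 1 of these 3 was in 39 of the 72. The ERR letters were in the windows of Atp5g3 and Sdhd (2.78%, against 0.423%). The DR1 letters were in 0 of 72 and in 0.0396% of all promoters searched. Member promoters were also richer in G and C, with a median of 58.5% against 52.7% over all promoters searched. Such matches are descriptions of the letters, not of binding.

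Levels spanned more than 4 orders of magnitude. Levels between genes were compared per kb of sequence not shared with other genes, with length taken as the number of distinct 50-base stretches over all annotated transcripts of a gene, so that genes with several transcripts come out lower. On this scale mt-Co1 (76070 CPM per kb), which encodes the catalytic core of complex IV, and mt-Cytb (64520), the core of complex III, were highest. They were followed by mt-Nd1, mt-Nd5, mt-Nd4 and mt-Nd2 at 29030 to 13700 CPM per kb. The place of mt-Co1 and mt-Nd4 rests on leaving out their shared stretches. In mean CPM without length, mt-Cytb (70650) was above mt-Co1 (55610). The highest nuclear member per kb was Uqcrb (831 CPM per kb), a small subunit of complex III, followed by Atp5a1 (584), the alpha subunit of the ATP synthase head. Cox4i2, the isoform of subunit 4 known from lung, was the lowest member (1.23 CPM per kb), and Cox6b2 ranked 92 of 97 (3.60). In unscaled share, the 13 mitochondrial genes took 14.8% to 24.05% of gene counts in Ctrlm and 19.6% to 22.6% in cKOm kidneys. In females they took 13.6% to 22.3% (Ctrlf) and 19.5% to 21.7% (cKOf). The 90 nuclear members took 1.56% ± 0.221 in Ctrlm and 1.49% ± 0.0334 in cKOm kidneys, and 1.60% ± 0.156 (Ctrlf) and 1.61% ± 0.209 (cKOf) in females (SD, n = 6). Both shares overlapped between cKO and Ctrl mice of each sex, and both had a larger SD in Ctrlm and Ctrlf than in cKOm kidneys.

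The male comparison asks which subunits differ when renal tubules of adult males lack Pex5. Of the 97 members, 2 were called (edgeR adjusted p under 0.05 over the tests of both sexes), against 9.05% of the 16092 genes tested, 1456 in number. Cox6b2 and Cox7a1, both minor isoforms of complex IV subunits, were higher in cKOm mice, against 4.14% of all genes, and 0 members were called lower, against 4.9% of all genes. The unadjusted p was under 0.05 for 15 members that were lower, against 12% of all genes, and for the 2 called members, against 13.1% of all genes that were higher. Among the 90 nuclear members, 76 had a log2 fold change below 0, with a median of -0.124, while the median of all genes tested was 0.0148 and 52.2% of them were above 0. The values of the nuclear members lay from -0.43 (Atp5g2) to 1.31 (Cox6b2), with a median standard error of 0.130. All 8 nuclear members of complex III, 16 of 17 of complex V, 38 of 44 of complex I, 3 of 4 of complex II and 11 of 17 of complex IV were below 0. In bulk RNA, fewer cells of a type and less RNA per cell cannot be told apart, and the markers of tubule segments given above differed between the same kidneys, lower in sum for the proximal tubule and higher at the median for the thick ascending limb and the distal convoluted tubule. Their part in these values was not tested. Of the 7 mitochondrial members, 4 were above 0 and 3 below, with a median of 0.04, and 0 were called (edgeR; 0 with an unadjusted p under 0.05).

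**Figure D2:**
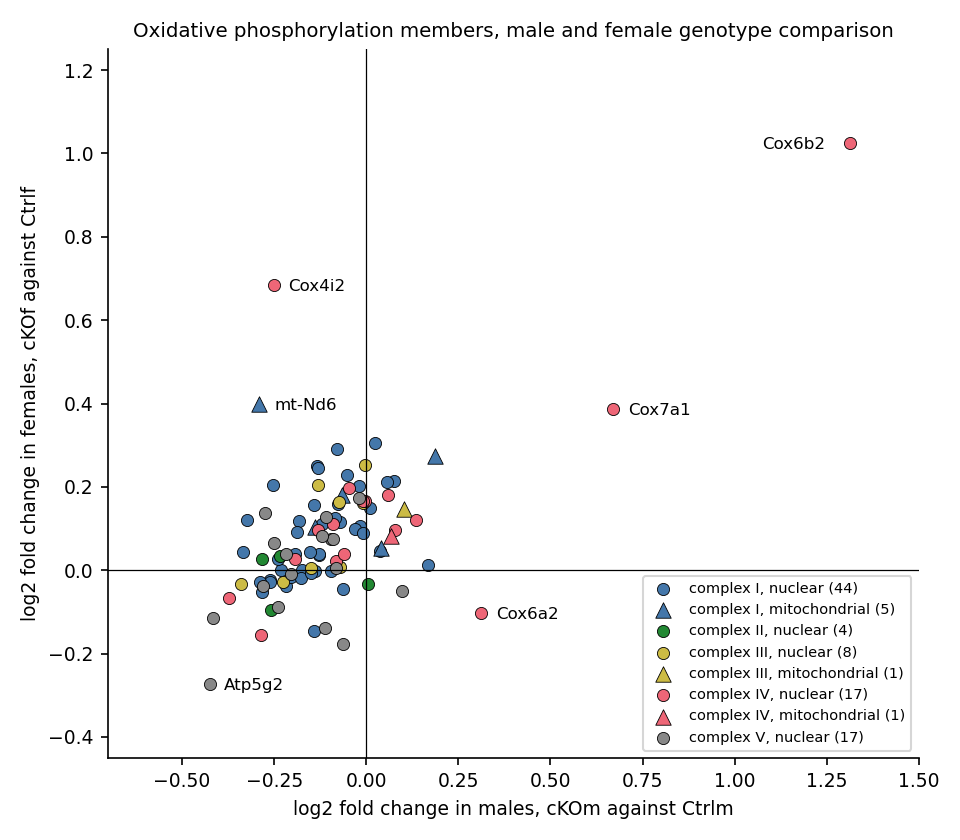
Log2 fold change in males (horizontal axis, cKOm against Ctrlm) and in females (vertical axis, cKOf against Ctrlf) for each of the 97 members, coloured by complex, with circles for nuclear and triangles for mitochondrial genes. Cox6b2 lies apart at 1.31 and 1.03, Cox7a1 at 0.67 and 0.39, and most other members lie left of 0 within 0.5 of it.

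The lower median of the nuclear members in males rested in large part on 1 control kidney. In Ctrlm 5, 89 of 90 nuclear members were above the mean of their group, by a median of 0.409 on the log2 scale, and their sum was 20277 CPM, against 14044 to 16763 in the other Ctrlm kidneys. Without Ctrlm 5, 51 of 90 nuclear members were below 0 and their median was -0.025. Leaving out any other kidney left 71 to 81 below 0, with medians of -0.170 to -0.104. Scaling by library totals alone gave 65 below 0. The median of all genes was then 0.067, and 78 lay below it, as did 78 in the main analysis. When the 5 kidneys with raised liver transcripts were left out, which keeps only Ctrlm 5 and 6 as male controls, 86 were below 0 and the median was -0.352. The summed level of the nuclear members was 16220 ± 2200 CPM in Ctrlm and 14960 ± 440 in cKOm kidneys (SD, n = 6), and the groups overlapped.

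**Figure D3:**
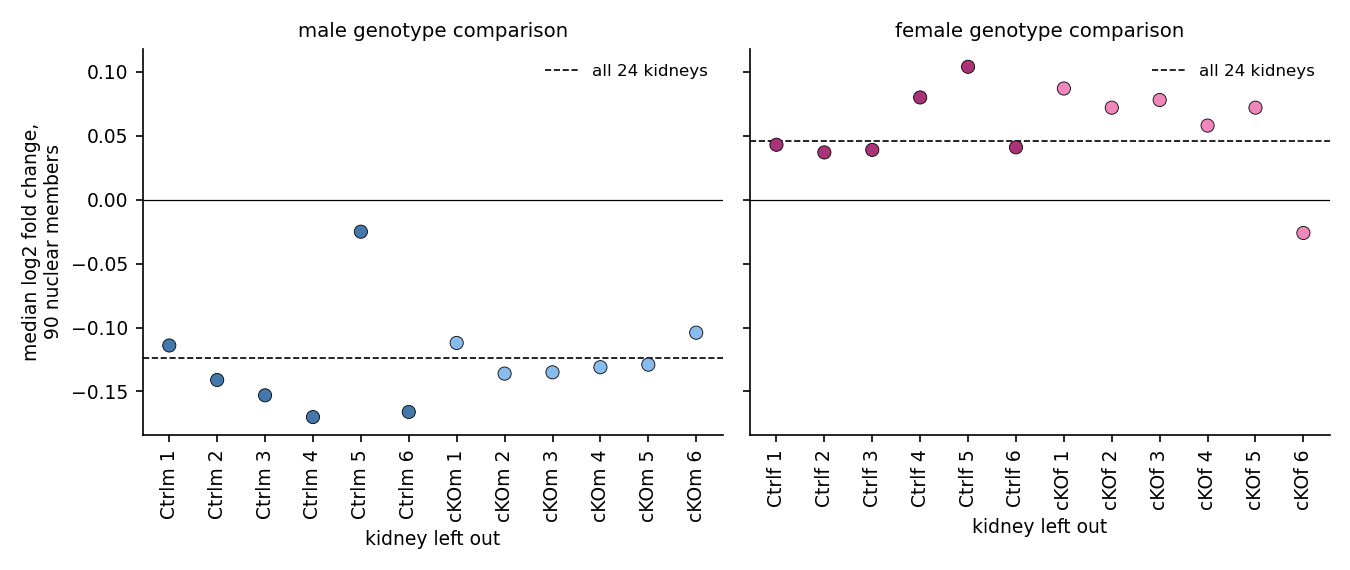
Median log2 fold change of the 90 nuclear members (vertical axis) in the male (left) and female (right) genotype comparison after each kidney of that sex was left out (horizontal axis), coloured by group, with the value from all 24 kidneys as a dashed line. Without Ctrlm 5 the male median is -0.025, and without cKOf 6 the female median is -0.026.

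Cox6b2 encodes the isoform of complex IV subunit 6B known from testis, and lies on chromosome 7 of GRCm38 from 4751792 to 4753094 (minus strand). Its level in Ctrlm kidneys was 1.49 CPM at the lowest, 2.38 at the median and 2.97 at the highest. In cKOm kidneys it was 4.66 at the lowest, 5.44 at the median and 7.46 at the highest. Every cKOm kidney was above every Ctrlm kidney, as it was for 3.69% of all genes, and the fold was 2.48 (log2 fold change 1.31, standard error 0.22, edgeR adjusted p = 0.00022; exact permutation test, two-sided, p = 0.00216, which is the lowest value 6 against 6 can give). In Ctrlf kidneys the level was 2.71 at the lowest, 3.33 at the median and 5.94 at the highest. In cKOf kidneys it was 5.50, 7.26 and 11.8 CPM. The female groups met only in Ctrlf 5, which lay above 2 cKOf kidneys. The female log2 fold change was 1.03 (standard error 0.21, edgeR adjusted p = 0.0025; two-sided exact permutation test, p = 0.00649). The test of male against female change did not pass the threshold (difference 0.29, standard error 0.30, edgeR adjusted p = 0.737). Cox6b2 was the single member called in both sexes, and it was called in all 24 fits that each left out a kidney, in males and in females. The male call was lost when the 5 kidneys with raised liver transcripts were left out (log2 fold change 1.08, edgeR adjusted p = 0.119). No 50-base stretch of Cox6b2 was shared with another gene.

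Cox6b1, the isoform that most tissues use, was at 225 ± 64.2 CPM in Ctrlm and 212 ± 15.4 in cKOm kidneys, and in females at 202 ± 24.8 (Ctrlf) and 218 ± 49.4 (cKOf) CPM (SD, n = 6). It did not pass the test in either sex (edgeR adjusted p = 0.832 in males and 0.783 in females). Of the per-length level of both isoforms, Cox6b2 made up 0.343% to 0.690% in Ctrlm and 1.16% to 1.85% in cKOm kidneys. In females the share was 0.859% to 1.49% in Ctrlf and 1.55% to 2.34% in cKOf kidneys. These ranges did not overlap in either sex, and Cox6b2 stayed a small part of the subunit 6B transcripts in all 24 kidneys.

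Cox7a1 encodes the isoform of complex IV subunit 7A known from heart and skeletal muscle, on chromosome 7 from 30184144 to 30186078 (plus strand). It was at 8.57 CPM at the lowest, 14.1 at the median and 20.4 at the highest in Ctrlm kidneys, and at 18.1, 22.2 and 25.3 CPM in cKOm kidneys. Only Ctrlm 5 reached into the range of cKOm kidneys. The male log2 fold change was 0.67 (standard error 0.18, edgeR adjusted p = 0.0203; two-sided exact permutation test, p = 0.00649). In females the level was 9.52, 17.9 and 19.2 CPM in Ctrlf and 16.8, 20.9 and 29.2 in cKOf kidneys, at the lowest, the median and the highest. The female groups overlapped, and the log2 fold change of 0.39 (standard error 0.17) did not pass the threshold (edgeR adjusted p = 0.258). The male call was lost without Ctrlm 2, Ctrlm 3 or cKOm 2 (edgeR adjusted p from 0.0536 to 0.0567), with a hepatocyte score as covariate (log2 fold change 0.66, edgeR adjusted p = 0.089), and also without the 5 kidneys with raised liver transcripts (log2 fold change 0.30, edgeR adjusted p = 0.666). The sum of 6 skeletal muscle markers reached 552 CPM in Ctrlf 4, and was 0.791 to 43.1 in Ctrlm and 1.00 to 6.45 in cKOm kidneys. In females its median was 12.17 CPM in Ctrlf and 52.31 in cKOf kidneys, where it ran from 3.87 to 122.8. The part of muscle in the Cox7a1 values was not tested. Cox7a1 in Ctrlf 4 was 17.7 CPM, inside the range of the other Ctrlf kidneys. Of the per-length level of subunit 7A, Cox7a1 made up 9.22% to 18.1% in Ctrlm and 22.9% to 25.1% in cKOm kidneys, without overlap, the rest being Cox7a2, which did not pass the test (edgeR adjusted p = 0.721 in males).

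**Figure D4:**
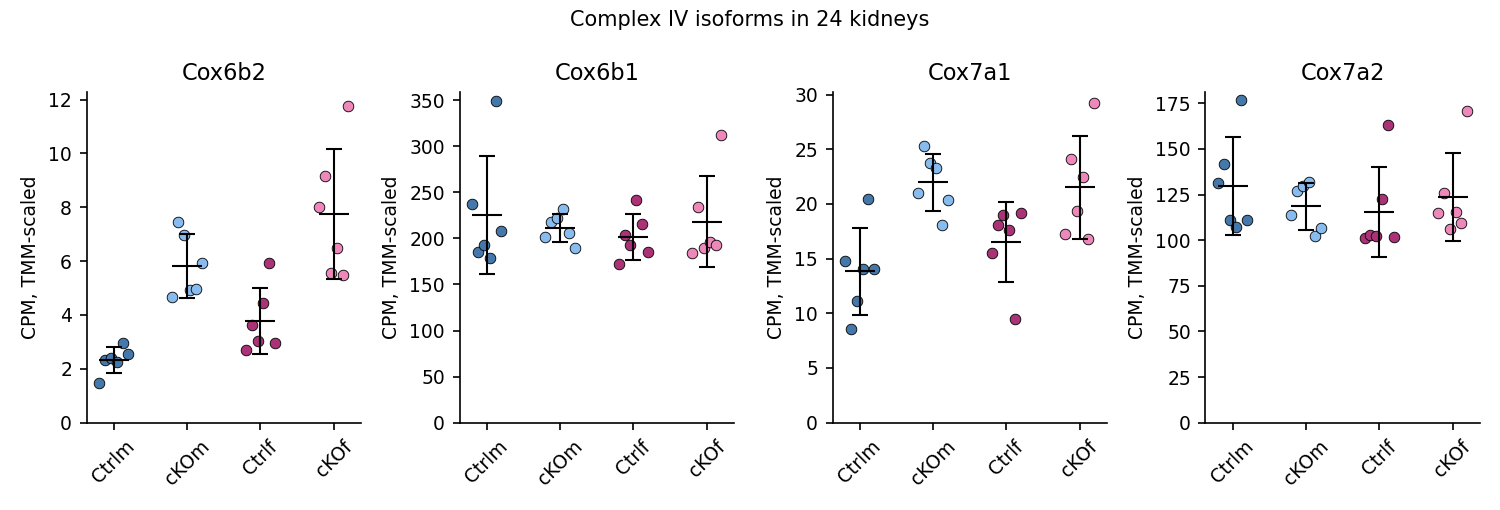
Level in CPM after TMM scaling (vertical axes, from 0) of Cox6b2, Cox6b1, Cox7a1 and Cox7a2 in each of 24 kidneys, by group, with the mean and SD of 6 kidneys in black. Cox6b2 is higher in every cKOm than in every Ctrlm kidney, and Cox6b1 and Cox7a2 overlap between all groups.

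The other isoform pairs did not pass the test in either sex. Cox6a2 and Cox8b, the heart and muscle isoforms of subunits 6A and 8, were at 1.88 ± 1.26 and 0.232 ± 0.225 CPM in Ctrlm and at 2.33 ± 1.78 and 0.319 ± 0.337 in cKOm kidneys (SD, n = 6). Cox8b did not reach the level for members. Ndufa4l2, known to rise in hypoxia, made up 4.25% ± 1.24 of its pair with Ndufa4 in Ctrlm and 4.25% ± 0.670 in cKOm kidneys (SD, n = 6). Cox7a2l, which helps to join complexes III and IV into supercomplexes, was at 177 ± 34.3 CPM in Ctrlm and 186 ± 6.88 in cKOm kidneys (SD, n = 6; edgeR adjusted p = 0.820). Atp5g1, Atp5g2 and Atp5g3, which encode the same c subunit of complex V, had male log2 fold changes of -0.11, -0.43 and -0.28 (edgeR adjusted p = 0.845, 0.533 and 0.400).

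Within each complex, the member with the lowest male p other than the called genes had a log2 fold change below 0 in males and did not pass the test, and its levels are given here. Ndufv1, the complex I subunit that takes electrons from NADH, was 213 CPM at the lowest, 245 at the median and 296 at the highest in Ctrlm and 188, 203 and 219 CPM in cKOm kidneys. The ranges overlapped, and the log2 fold change was -0.29 (standard error 0.09, edgeR adjusted p = 0.0543). It passed the threshold in 7 of 13 other analyses and in 6 of 24 fits that each left out a kidney. Sdhb, the iron-sulfur subunit of complex II, was 256, 279 and 359 CPM in Ctrlm and 216, 237 and 246 CPM in cKOm kidneys, so that every cKOm kidney lay below every Ctrlm kidney, as did 3.69% of all genes tested. Its log2 fold change was -0.28 (standard error 0.10, edgeR adjusted p = 0.127; two-sided exact permutation test, p = 0.00216). Ndufs1, the large iron-sulfur subunit of complex I, was the only other member with lower values in every cKOm kidney, 250.7 to 281 CPM against 282 to 359.9 in Ctrlm kidneys (edgeR adjusted p = 0.151), and was chosen after its values were seen. Uqcrfs1, the Rieske iron-sulfur protein of complex III, was 149.9, 182 and 237 CPM in Ctrlm and 142, 148 and 163 CPM in cKOm kidneys (log2 fold change -0.34, standard error 0.12, edgeR adjusted p = 0.109). Ndufa4, a subunit of complex IV, was 128, 156 and 235 CPM in Ctrlm and 124.5, 135 and 142 CPM in cKOm kidneys (log2 fold change -0.37, standard error 0.16, edgeR adjusted p = 0.219). Atp5b, the catalytic beta subunit of complex V, was 1687, 2000.0 and 2165 CPM in Ctrlm and 1622, 1692 and 1730.0 CPM in cKOm kidneys (log2 fold change -0.24, standard error 0.08, edgeR adjusted p = 0.0977). In Ndufv1, Uqcrfs1, Ndufa4 and Atp5b, the overlap came from Ctrlm 4 alone. Adjusted p values over all alternatives ran from 0.0152 to 0.314 for Sdhb, from 0.0147 to 0.271 for Uqcrfs1 and from 0.0136 to 0.329 for Atp5b. The lowest of these came from leaving out Ctrlm 5, Ctrlf 5 and cKOf 6, where these 3 genes and Ndufv1 (edgeR adjusted p = 0.0266) were called lower in cKOm mice, while the median of the nuclear members was -0.046.

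The most abundant nuclear members of complexes II to V did not pass the test in either sex. Sdha, the flavoprotein of complex II, was at 948 ± 34.4 CPM in Ctrlm and 952 ± 65.5 in cKOm kidneys (SD, n = 6), a log2 fold change of 0.01 with a standard error of 0.06. Atp5a1 was at 1866 ± 157 CPM in Ctrlm and 1763 ± 44.5 in cKOm kidneys (SD, n = 6; log2 fold change -0.08, standard error 0.07). Cox4i1, the common isoform of subunit 4, was at 481 ± 72.7 and 454 ± 27.2 CPM in Ctrlm and cKOm kidneys (SD, n = 6), and Uqcrb at 283 to 689.7 CPM in Ctrlm and 455.5 to 549 CPM in cKOm kidneys. Differences of these sizes were within the spread of the control kidneys.

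In the mitochondrial genome, mt-Cytb was 47930 CPM at the lowest, 77040 at the median and 86740 at the highest in Ctrlm and 68840, 76720 and 85120 CPM in cKOm kidneys. The cKOm range lay inside the Ctrlm range, as it did for mt-Nd1, mt-Nd4, mt-Nd5 and mt-Co1. In mt-Nd1 the male log2 fold change was -0.07 (standard error 0.14), in mt-Nd2 0.19 (0.12), in mt-Nd4 0.04 (0.10), in mt-Nd5 -0.14 (0.20), in mt-Nd6 -0.29 (0.27), in mt-Cytb 0.10 (0.14) and in mt-Co1 0.07 (0.10). The lowest of their adjusted p values was 0.505 (edgeR, mt-Nd2). mt-Nd6, the single subunit encoded on the light strand, stood far below the others, at 88.3 ± 18.6 CPM in Ctrlm and 72.3 ± 32.7 in cKOm kidneys (SD, n = 6). Nuclear and mitochondrial members deviated together in some kidneys and apart in others. In cKOm 2, 75 of 90 nuclear and 6 of 7 mitochondrial members were above the mean of their group. In Ctrlm 5, 1 of 7 mitochondrial members was above the mean of its group while 89 of 90 nuclear members were. In Ctrlf 5, 0 of 7 mitochondrial and 60 of 90 nuclear members were above it, and in Ctrlm 2, 0 of 7 and 34 of 90. In cKOf 6, 5 of 7 mitochondrial and 87 of 90 nuclear members were above it.

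**Figure D5:**
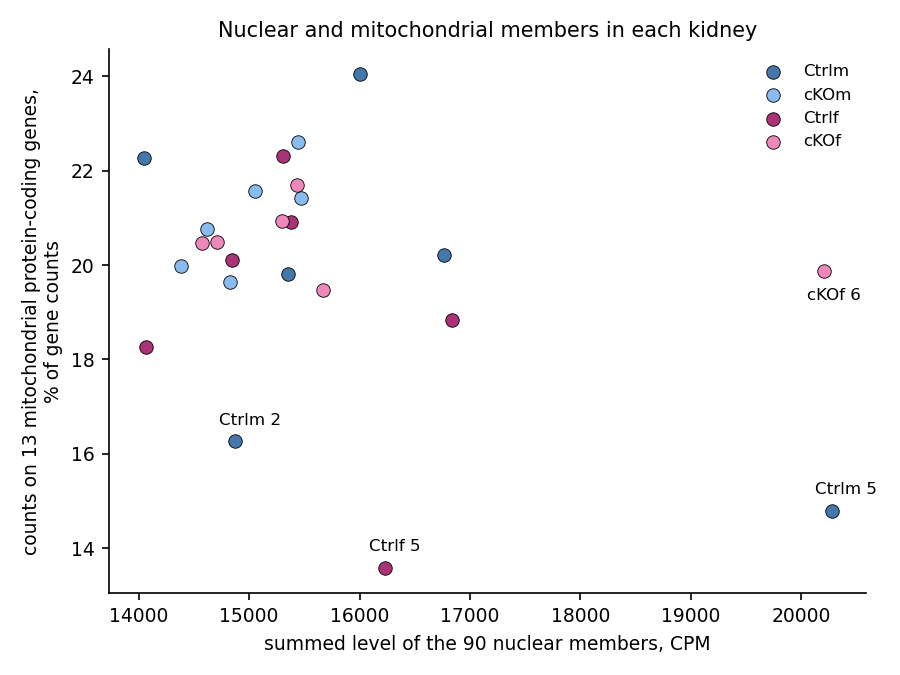
Counts on the 13 mitochondrial protein-coding genes as a percentage of gene counts (vertical axis) against the summed level of the 90 nuclear members in CPM (horizontal axis) in each of 24 kidneys, coloured by group. Ctrlm 5 and cKOf 6 lie to the right at 20277 and 20206 CPM, and Ctrlf 5, Ctrlm 5 and Ctrlm 2 lie lowest at 13.6%, 14.8% and 16.3%.

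The kidneys with high nuclear members also differed in a count of the files that holds no gene. Reads that fell outside annotated exons made up 4.45% to 4.80% in cKOf 6, Ctrlm 5, Ctrlf 4 and Ctrlm 1, and 5.37% to 6.66% in the other 20 kidneys. The summed level of the nuclear members was 16763 to 20277 CPM in these 4 kidneys and 14044 to 16235 in the other 20, without overlap. The cut at 4 kidneys was drawn from these data. Among the other 20, the highest sum was that of Ctrlf 5, with a share of 6.50%. The share also differed by genotype in males, at 5.30% ± 0.527 in Ctrlm and 6.06% ± 0.174 in cKOm kidneys (SD, n = 6), with ranges of 4.58% to 5.98% and 5.85% to 6.33%. The part of this share in the levels of the members was not tested.

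In females, 1 of 97 members was called, Cox6b2, against 0.851% of the 16092 genes tested, 137 in number. Of the nuclear members, 61 of 90 were above 0, against 50.5% of all genes, with a median of 0.046, beside 0.0019 over all genes. With scaling by library totals alone, 44 of 90 were below 0 in place of 29. The median of all genes was then -0.032, and 30 of 90 lay below it, beside 29 of 90 in the main analysis. The direction above 0, too, rested on 1 kidney. In cKOf 6, 87 of 90 nuclear members were above the mean of their group, and without it 56 of 90 were below 0, with a median of -0.026. Without Ctrlf 5, 13 of 90 were below 0, with a median of 0.104. All 7 mitochondrial members were above 0 in females, with a median of 0.148, and 0 were called (edgeR; mt-Nd2 had an unadjusted p under 0.05, against 2.59% of all genes that were higher). For mt-Nd2, the level was 6872 CPM at the lowest, 11090 at the median and 12200 at the highest in Ctrlf and 11160, 12930 and 14150 CPM in cKOf kidneys (log2 fold change 0.27, standard error 0.12, edgeR adjusted p = 0.261). Its low end was Ctrlf 5. Without Ctrlf 5, 5 of the 7 mitochondrial members were above 0 and their median was 0.031. In the complexes, the median of the nuclear members was 0.069 for complex I, -0.003 for complex II, 0.085 for complex III, 0.111 for complex IV and 0.006 for complex V.

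Whether the genotype effect differed by sex was tested directly, and 0 of 97 members were called (edgeR; 0 with limma-voom and 0 with DESeq2), against 2.31% of all genes tested. The unadjusted p was under 0.05 for 6 members, all with the lower value in males, against 6.75% of all genes. Ndufv3, a small subunit of complex I, had the lowest p, with a difference of -0.46 (standard error 0.16, edgeR adjusted p = 0.168). It stood at 114 ± 19.8 CPM in male controls (Ctrlm) and 95.8 ± 8.39 in cKOm kidneys, and in females 82.5 ± 11.1 (Ctrlf) and 95.0 ± 16.5 (cKOf) CPM (SD, n = 6). For 80 of the 90 nuclear members the male value lay below the female value, with a median difference of -0.194, while 52.7% of all genes were above 0. Without Ctrlm 5, Ctrlf 5 and cKOf 6 the number was 55 and the median -0.026.

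Between the sexes, 4 members were called in controls, against 16.8% of all genes tested. Ndufv3 (log2 difference 0.47, standard error 0.11, edgeR adjusted p = 0.00441), Ndufa10 (0.25, standard error 0.08, edgeR adjusted p = 0.0321) and Ndufaf1 (0.29, standard error 0.10, edgeR adjusted p = 0.0449) were higher in Ctrlm than in Ctrlf kidneys, while Cox6b2 was lower (-0.70, standard error 0.22, edgeR adjusted p = 0.0258). Ndufa10, an accessory subunit of complex I, was at 189 ± 24.1 CPM in Ctrlm and 159 ± 12.8 in Ctrlf kidneys, and Ndufaf1, an assembly factor of complex I, at 31.3 ± 5.40 and 25.6 ± 3.17 (SD, n = 6). In all 4 genes the ranges of the sexes overlapped. The call of Ndufaf1 was lost in 15 of 24 fits that each left out a kidney (edgeR adjusted p over the 24 from 0.0139 to 0.163), that of Ndufa10 without Ctrlm 1, Ctrlm 5, Ctrlf 1, Ctrlf 2, Ctrlf 3 or Ctrlf 6 (up to 0.11), and that of Cox6b2 without Ctrlm 1, Ctrlf 4 or Ctrlf 5. Ndufv3 was called in all 24. With the hepatocyte covariate none of the 4 was called (edgeR adjusted p = 0.0721 for Ndufv3 and 0.172 for Ndufa10). Ndufa10 was also lost with library totals (edgeR adjusted p = 0.267) and with the replicate block (edgeR adjusted p = 0.0512). Between cKO mice of the sexes, 1 member was called, against 8.14% of all genes. Ndufaf5, which modifies Ndufs7 during the assembly of complex I, was at 7.69 ± 0.799 CPM in cKOm and 10.4 ± 2.01 in cKOf kidneys (SD, n = 6), a log2 difference of -0.43 (standard error 0.13, edgeR adjusted p = 0.0296), and its call was lost without cKOm 1, cKOm 4, cKOm 5, cKOf 2, cKOf 4 or cKOf 6 (edgeR adjusted p over the 24 fits from 0.00521 to 0.0873). These comparisons share kidneys with the genotype comparisons.

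Genes that serve the same complexes were followed in 9 lists. Among 18 assembly factors of complex I (8 of them also members), 1 was called lower in males, against 4.9% of all genes. This was Acad9, at 53.2 ± 3.27 CPM in Ctrlm and 36.4 ± 3.03 in cKOm kidneys (SD, n = 6; log2 fold change -0.55, standard error 0.07, edgeR adjusted p = 1.4e-05). It was also lower in females, at 45.2 ± 3.73 CPM in Ctrlf and 37.8 ± 3.0 in cKOf kidneys (SD, n = 6; log2 fold change -0.26, edgeR adjusted p = 0.0381). Of 31 assembly factors of complexes II to V, 0 were called in either sex (edgeR). At an unadjusted p under 0.05, 3 were higher and 5 lower in males, against 13.1% and 12% of all genes, and 0 in females. Among 21 genes for cytochrome c, carriers and ubiquinone synthesis, 1 rose and 2 fell in males, against 4.14% and 4.9% of all genes. Slc25a4, the muscle and heart isoform of the carrier that exchanges ADP for ATP, rose (log2 fold change 0.38, edgeR adjusted p = 0.0172). Gpd2, which passes electrons from glycerol phosphate to ubiquinone, fell by 0.74 on the log2 scale (edgeR adjusted p = 0.00146), and Pdss1, which makes the ubiquinone side chain, fell by 0.47 (edgeR adjusted p = 0.00591). In females, Etfdh, which hands electrons from fatty acid oxidation to ubiquinone, rose (log2 fold change 0.22, edgeR adjusted p = 0.0384). Cyc1 and Cycs, cytochrome c1 and cytochrome c, had male log2 fold changes of -0.16 and -0.54 (edgeR adjusted p = 0.498 and 0.0867), and Cycs was higher in Ctrlm than in Ctrlf kidneys (0.82, edgeR adjusted p = 0.00167).

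Of 15 genes for outer membrane channels and protein import, 3 fell in males, against 4.9% of all genes, and 0 were called in females, against 0.851%. Timm50, a receptor of the inner membrane translocase, fell by 0.55 on the log2 scale in males (edgeR adjusted p = 0.00327), and its male change was below its female change (difference -0.71, standard error 0.16, edgeR adjusted p = 0.0155). Hspd1, the matrix chaperonin, fell by 0.35 (edgeR adjusted p = 0.0234), and so did the chaperone Hspa9, by 0.27 (edgeR adjusted p = 0.0477). Of 77 proteins of the mitochondrial ribosome, which translates the mitochondrial subunits, 3 fell in males, a share below the 4.9% of all genes, Mrpl44 and Mrpl16 with the lowest p (log2 fold changes -0.36 and -0.38, edgeR adjusted p = 0.0169 and 0.0175) and Mrpl45 with -0.31 (edgeR adjusted p = 0.0462), and 0 were called in females. Among 19 regulators of respiratory gene transcription, 1 was called in males, Gabpb2, a beta subunit of GABP, which was higher, against 4.14% of all genes (log2 fold change 0.53, edgeR adjusted p = 0.0163). Gabpa (0.20), Nrf1 (0.05), Ppargc1a (0.18) and Esrra (-0.08) did not pass the test in males, with edgeR adjusted p of 0.469, 0.889, 0.533 and 0.771. Citric acid cycle enzymes (14 genes), genes of mitochondrial DNA upkeep and transcription (17) and of mitochondrial RNA processing (16) had 0 called in either sex, with 5, 2 and 3 lower in males at an unadjusted p under 0.05, against 12% of all genes. In the last 2 lists, Tfam, Polrmt and Lrpprc had male log2 fold changes of -0.23, -0.06 and -0.17 (edgeR adjusted p = 0.249, 0.828 and 0.233). The median male log2 fold change was below 0 in 8 of the 9 lists, from -0.163 to -0.039, and 0.142 for the regulators, beside 0.0148 over all genes. These list medians include Ctrlm 5, on which the median of the nuclear members rested in large part. Their values without that kidney are not given here.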

How the data were processed

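RNA of 24 whole mouse kidneys was sequenced, 6 per group, with the groups (Ctrlm and cKOm males, Ctrlf and cKOf females) taken from the labels. The authors deposited raw counts of reads per gene, 1 file per kidney, without normalization. Per the labels and the submitters' processing notes, cutadapt 1.8, STAR 2.5.3a, HTSeq 0.9.1 and GRCm38 were used, with a stranded kit. The strand setting of the counting is not given in the sources used here. The 5 closing lines of each file, for reads not counted on a gene, were kept out of library sizes (no feature 4.45% to 6.66%, ambiguous 0.706% to 0.939%). Genes were named from GENCODE M21 (55154 of 55335 matched).

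A gene entered the test when 1 kidney or more reached 1 CPM (counts per library size), in edgeR 4.0.16 in R 4.3.3 (TMM, quasi-likelihood, 1 model of 4 groups). Benjamini-Hochberg adjustment ran over male and female tests together, or over all genes for other comparisons, with a threshold of 0.05. CPM are TMM-scaled. Exact permutation tests covered the 924 arrangements of 6 against 6. On simulated data of 16092 genes with 200 given a log2 change of 1, 162 were recovered with 3 false calls in males and 153 with 2 in females. In males, 88 of the 90 nuclear members lay within 0.5 of 0, and recovery of such smaller changes was not simulated. The simulated counts also held no shift shared by the genes of a kidney. With 3 counts as the floor of detection, a kidney detects 0.105 to 0.155 CPM, for counting error only. The labels number 6 kidneys per group without naming the mice, and p values measure the spread between these samples. Kidneys of a group differed by more than sampling noise (chi-square per degree of freedom 9.83 to 99.2 over 60 pairs).

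Members, lists and tests were chosen with earlier results of these data known. Named are the 13 mitochondrial genes, called members (at most 10 per direction), per complex the most abundant nuclear member and that with the lowest male p, isoform pairs, 10 related genes, and in each list at most 2 called genes per direction (Hspa9 and Mrpl45 were added after their values were seen). The result for 1 named member is not reported here. Alternatives were RLE, library totals or nuclear-only scaling, 2 other filters, limma-voom 3.58.1, DESeq2 1.42.0, each sex alone or adjusted alone, a replicate block, a hepatocyte covariate, Ndufaf genes left out, and each kidney left out. Leaving out the 5 kidneys with over 500 CPM of hepatocyte markers, or Ctrlm 5, Ctrlf 5 and cKOf 6, was chosen after seeing the data. Tables and figures used Python 3.11.15, pandas 2.3.3, scipy 1.17.1 and matplotlib 3.10.9.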

Additional observations from a re-analysis of the deposited data

Results flagged for a closer look

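In 21 of 104 sets of 6 kidneys (named levels and sums, by group), the gap between the highest or lowest kidney and its nearest neighbour was a larger part of the range than Dixon's 95% limit. Chance passes this limit in about 1 of 20 independent sets. The 104 sets come from the same 24 kidneys and are not independent, so their count cannot be set against that rate. Most of the 21 came from 2 kidneys. cKOf 6 was the highest of its group for Sdhb (400 CPM, others 246 to 263), Uqcrfs1 (209), Cox4i1 (719), Ndufv1 (274), Atp5b (2160), Cox7a2 (171) and the sum of the nuclear members (20200, others 14600 to 15700). Ctrlf 5 was the lowest of its group for mt-Nd1 (13500 CPM, others 23800 to 28300), mt-Nd2 (6870), mt-Cytb (33500) and Uqcrb (244), and the highest for Uqcrfs1 (239) and Cox7a2 (163). Ctrlm 5 was the highest for Cox6b1 (349) and Sdhb (359). The rest were mt-Nd6 (134, highest) and Sdhb (216, lowest) in cKOm 4, mt-Co1 in cKOm 1 (52100, lowest), Uqcrfs1 in cKOm 5 (163, highest), Sdha in Ctrlf 3 (1030, highest) and Sdhb in Ctrlf 4 (309, highest). The part of these kidneys in the comparisons is given by the values without them.

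Timm50 was the single gene of the 9 lists whose genotype effect differed between the sexes (male minus female -0.71 on the log2 scale, edgeR adjusted p = 0.0155). Of all genes tested, 2.31% were called for this difference.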

How the results depend on the processing

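Of 17879 values of single genes recomputed over up to 39 other settings, 0 were called in the opposite direction, 167 lost their call and 44 gained one. Called members in males numbered 2, and 4 with DESeq2 (Ndufv1 and Atp5b lower), 6 with each sex alone (Sdhb and Uqcrfs1 lower as well), 1 with the hepatocyte covariate (Cox6b2), 0 without the kidneys with raised liver transcripts, 7 without Ctrlm 5, Ctrlf 5 and cKOf 6 (both chosen after seeing the data), and 1 to 5 when each kidney was left out. In females the number stayed at 1 and for the interaction at 0 in all of these. Between control sexes it was 4, and 2 with library totals or limma-voom, 0 with the hepatocyte covariate, 8 without the 3 kidneys, and 1 to 6 with a kidney left out. Between cKO sexes it was 1, and 0 without Ndufaf genes, with every gene that had a count, limma-voom, the hepatocyte covariate or without kidneys with raised liver transcripts, and 0 to 2 with a kidney left out. Female nuclear members below 0 numbered 29, 44 with library totals and 13 to 56 with a kidney left out. Those below the median of all genes numbered 29, and 30 with library totals. The male Pex5 value was -0.27 with library totals, -0.31 with the hepatocyte covariate and -0.26 without kidneys with raised liver transcripts, each with its call lost, and -0.37 to -0.27 with a kidney left out. With nuclear gene counts as the denominator, the mitochondrial counts were 24.5% (Ctrlm), 26.6% (cKOm), 23.6% (Ctrlf) and 25.8% (cKOf). Among all 16092 genes tested, the male number of 1456 was 1756 with DESeq2 and 1532 with each sex alone. It was 1620 of 15972 without the 3 kidneys, and 1152 to 1726 with a kidney left out. With the hepatocyte covariate it was 846, and 599 without kidneys with raised liver transcripts. The female number of 137 was 43 with adjustment in that sex alone and 206 without the 3 kidneys. Between control sexes, the number of 2708 was 3261 with library totals and 2579 with limma-voom. There it was 1679 with the hepatocyte covariate and 2832 without the 3 kidneys. The causes were not tested.

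Kidneys with the same number are from different groups. Over all genes, their deviations from the group means had r from -0.199 to 0.118 in 12 pairs of the same sex. Pairs with different numbers were not compared, so whether the number marks litters or handling was not tested. With the replicate block, 2 members were called in males, 1 in females, 2 between control sexes and 0 between cKO sexes, and 1268 and 110 genes of all in males and females.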

Other observations

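Short transcripts varied more between kidneys of a group than long ones. Over the 90 nuclear members, the SD within groups on the log2 scale had a Spearman rho of -0.53 with exon length and -0.44 with the mean level, as descriptions over genes of the same libraries. The 30 shortest members (up to 1217 bases of exon) had a median SD of 0.266 and the 30 longest (from 2147 bases) one of 0.171. In Ctrlm 5 the 30 shortest members lay 0.518 above their group mean and the 30 longest 0.320, and in cKOf 6 these values were 0.485 and 0.310. In Ctrlf 5 they were 0.080 and 0.091. The female median log2 fold change was 0.122 for the 30 shortest and 0.010 for the 30 longest members, while the male one was -0.076 and -0.131.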
